A study of Homo sapiens with 18 samples.

Results

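The S100 calcium-binding protein genes were followed across 2 triple-negative breast cancer lines. The members were S100A2, S100A4, S100A6, S100A7, S100A8, S100A9, S100A10, S100A11, S100A14 and S100P, taken by gene symbol: every probe annotated to one of these 10 names was kept, whatever its signal. They made up 10 of the 20046 genes named on the array and 12 of its 47231 probes, since S100A4 and S100A10 each had 2 probes. Gene expression profiling was run on 18 Illumina HumanHT-12 v4 bead arrays, with MDA-MB-468 and MDA-MB-231 cells exposed to the BET bromodomain inhibitor OTX015 (MK-8628), to its solvent DMSO, or left untreated. RNA was taken after 4, 8 and 24 h. OTX015 was given at 650 nM to MDA-MB-468 and at 75 nM to MDA-MB-231, so the lines differed in dose as well as in origin. Both are established lines from triple-negative tumors, which lack estrogen, progesterone and HER2 receptors, and each stands for 1 line only. There was 1 array per line, treatment and time. In the comparisons of OTX015 and of the lines, the 3 times of a treatment therefore served as its samples. Their p-values measure the spread among these arrays, which may be technical. Between 24 h and 4 h without drug, the untreated and DMSO arrays of a time served as its 2 samples. Those p-values rest on how far these 2 controls differed.

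S100 proteins are small calcium sensors with a pair of EF-hands, loops that hold a calcium ion. Most work as dimers that open on calcium and bind a partner protein, and several are also released from cells and act on surface receptors such as TLR4 and AGER. S100A8 and S100A9 pair into calprotectin, best known from neutrophils and from inflamed skin, while S100A7 (psoriasin) is typical of psoriatic skin. S100P, first found in placenta, binds ezrin. S100A14 is mainly an epithelial protein, and S100A2 is an epithelial protein often lost in breast tumors. S100A4 binds non-muscle myosin and is typical of fibroblasts and motile cells. S100A6 (calcyclin) binds CACYBP, S100A11 binds annexin A1 and S100A10 binds annexin A2. S100A10 is unusual in that it no longer binds calcium.

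In RefSeq (GRCh38.p14), 9 of the 10 genes lie in a run of 63 protein-coding genes on chromosome 1 that holds 16 S100 genes and, between S100A11 and S100A9, the epidermal differentiation complex, a block of skin barrier genes. S100P lies apart on chromosome 4. All 10 symbols matched the promoter table, with 13 listed transcription starts. The 250 bases before each start were searched on both strands for TATAAA, the letters of a TATA box, and for GGGCGG, the letters of a GC box. Both motifs were chosen after the levels in the lines had been seen. TATAAA stood 20 to 40 bases before a start, on the gene's own strand, at 5 of the 13 listed starts (1 in each of 5 genes), against 2.3% of the 35116 promoters in the table (10.7% held it anywhere in the window). These 5 sequences are shown because they hold TATAAA there, and no link between the motif and the levels was tested. They belong to the 4 members farthest above MDA-MB-231 in MDA-MB-468 cells, S100A8, S100A9, S100A7 and S100P, and to S100A4, the member farthest below. They run from base -100 to base -1 of the start, 5′ to 3′, with TATAAA in capitals.
S100A8 chr1:153391074-153391173 (-): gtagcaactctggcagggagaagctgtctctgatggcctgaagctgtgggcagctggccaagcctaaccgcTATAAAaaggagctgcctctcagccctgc
S100A9 chr1:153357754-153357853 (+): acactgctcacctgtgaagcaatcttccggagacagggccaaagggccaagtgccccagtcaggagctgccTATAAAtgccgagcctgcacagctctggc
S100A7 chr1:153460652-153460751 (-): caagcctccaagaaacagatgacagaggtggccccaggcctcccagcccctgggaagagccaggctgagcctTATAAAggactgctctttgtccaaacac
S100P chr4:6693778-6693877 (+): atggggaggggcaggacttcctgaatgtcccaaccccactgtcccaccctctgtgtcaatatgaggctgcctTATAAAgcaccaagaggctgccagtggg
S100A4 chr1:153545807-153545906 (-): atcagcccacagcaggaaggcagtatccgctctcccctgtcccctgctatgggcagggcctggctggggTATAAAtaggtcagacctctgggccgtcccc
The S100A8 stretch belongs to the second of 3 listed starts. The other 2 starts of S100A8 had no TATAAA between 20 and 40 bases before them. GGGCGG was found on either strand at 4 of the 13 listed starts, against 42.6% of all promoters. The stretches of the 3 genes that held it on their own strand follow, to set beside the 5 TATAAA genes. GGGCGG is in capitals. The S100A6 and S100A11 stretches start at base -100 and the S100A10 stretch at base -180.
S100A6 chr1:153535992-153536091 (-): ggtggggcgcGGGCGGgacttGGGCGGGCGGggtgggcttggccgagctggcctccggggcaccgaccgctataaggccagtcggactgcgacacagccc
S100A11 chr1:152037005-152037104 (-): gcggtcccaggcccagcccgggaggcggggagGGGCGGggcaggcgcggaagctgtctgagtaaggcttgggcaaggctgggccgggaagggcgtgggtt
S100A10 chr1:151993860-151994039 (-): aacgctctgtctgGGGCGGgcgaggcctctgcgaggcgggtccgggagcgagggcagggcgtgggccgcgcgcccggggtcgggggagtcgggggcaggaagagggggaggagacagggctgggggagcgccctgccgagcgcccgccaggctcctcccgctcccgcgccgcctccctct
S100A6 held GGGCGG at -90, -79 and -75, the last 2 of which overlap, S100A11 held it at -68 and S100A10 at -167. S100A6 and S100A10 each had 24 CpG dinucleotides in the 250 bases and S100A11 had 15, against a median of 11 over all promoters. The other 7 members had at most 8 CpG at every listed start, which makes 10 of the 13 starts, against 45.9% of all promoters. S100A9 held GGGCGG once, on the opposite strand. S100A2 and S100A14 held neither motif. Only exact letters were searched, so near matches were not counted, such as the tataag in the S100A6 stretch. These are matches of letters and not measured binding sites.

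The signal of a probe was read on a log2 scale after background correction and quantile normalisation, which gives all arrays the same distribution. Levels of different probes cannot be set against each other, since bead probes differ in how well they bind. A probe counted as above background where it exceeded the 95th percentile of 457 probes for olfactory receptors, genes silent in breast cells. This floor lay between 6.31 and 6.46 on the MDA-MB-468 arrays and between 6.33 and 6.43 in MDA-MB-231. Mean raw intensity per array ran from 174 to 503 in MDA-MB-468 and from 316 to 409 in MDA-MB-231. The lowest was MDA-MB-468 with OTX015 at 8 h, where 17133 probes lay above the floor against 18569 to 20252 on the other arrays of that line. All 12 member probes were above the floor on at least 3 of 18 arrays and were tested, as were 23631 probes in all. Of 4 epithelial markers, CDH1 (E-cadherin), EPCAM and KRT8 were higher in undrugged MDA-MB-468, by 4.82, 3.61 and 1.80 log2 as fitted, with CDH1 below the floor in MDA-MB-231. KRT18 was not on average, at 7.51 in MDA-MB-468, against 7.96 in MDA-MB-231 (-0.45 ± 0.16, adjusted p = 0.0215, limma, under the size threshold). In undrugged MDA-MB-468, KRT18 was higher at 24 h than at 4 h by more than this gap, so this is a mean over unlike times. It was above the floor on 7 of 9 MDA-MB-468 arrays. Of 4 mesenchymal markers, VIM (vimentin), ZEB1 and CDH2 were lower in MDA-MB-468, by -4.38, -1.29 and -0.58 log2 as fitted, with ZEB1 and CDH2 below the floor there, and FN1 was above the floor on no array of either line.

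**Figure D1:**
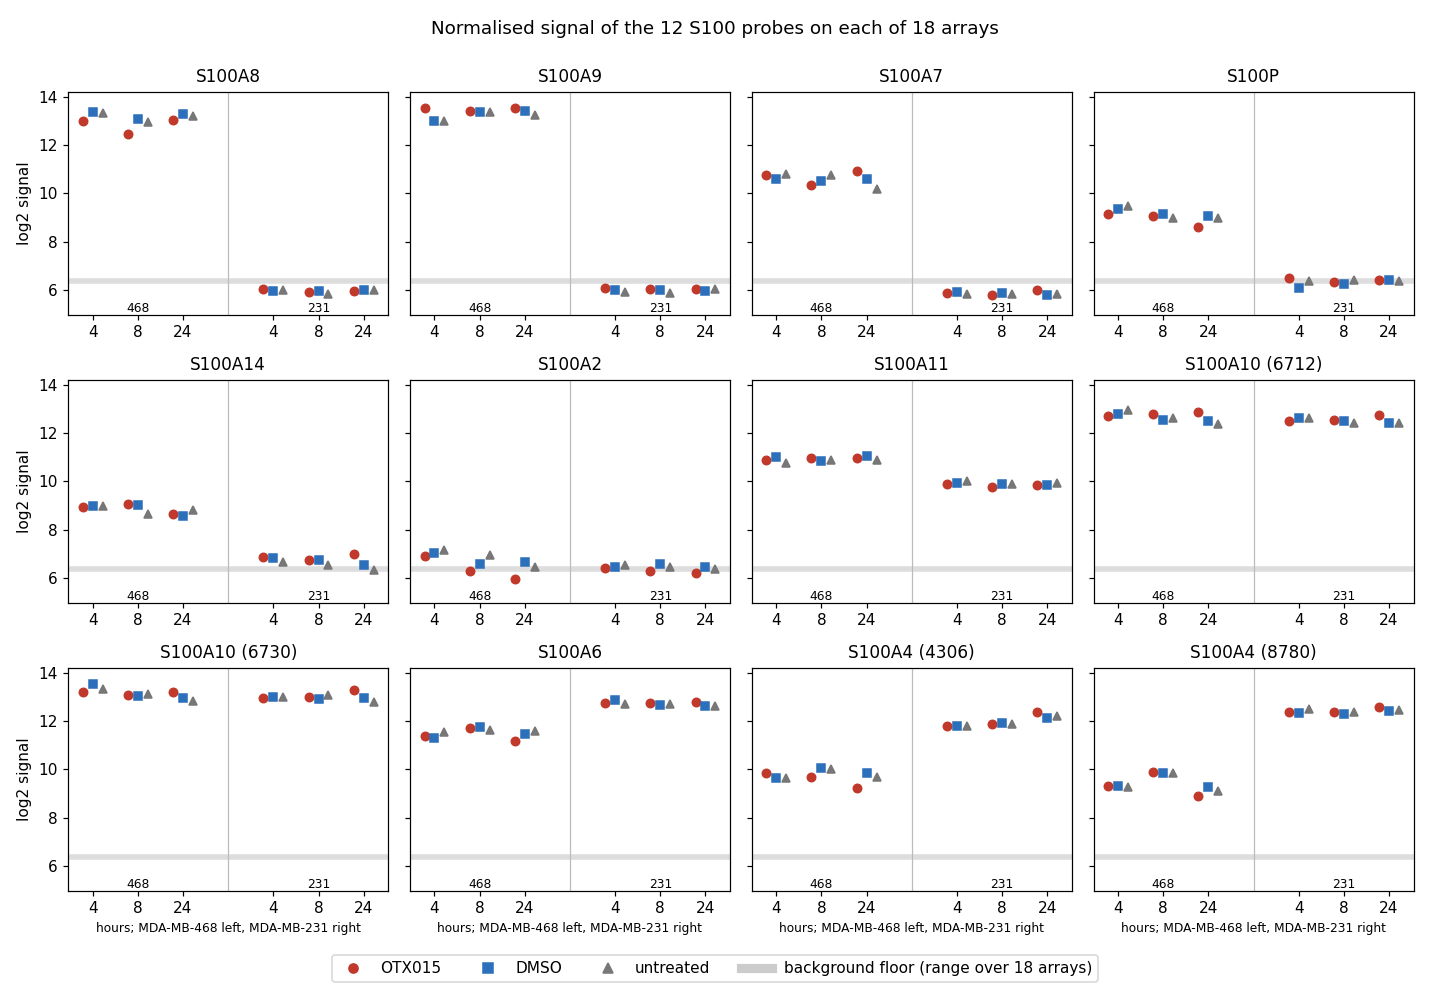
Normalised log2 signal (y axis) of each of the 12 S100 probes on all 18 arrays, by hours of exposure (x axis), with MDA-MB-468 left and MDA-MB-231 right, 1 point per array (circles OTX015, squares DMSO, triangles untreated), the floor as a grey band, and the last 4 digits of the probe added where a gene has 2. S100A8, S100A9 and S100A7 lie below the band on all 9 MDA-MB-231 arrays.

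Without drug, MDA-MB-468 cells had far more RNA of S100A8, S100A9 and S100A7 than MDA-MB-231 cells, and less of S100A4 and S100A6. Of the 12 member probes, 9 passed the test (limma, with the adjusted p no higher than 0.05 and 0.5 log2 or more between the lines), against 34.1% of all probes tested. Higher in MDA-MB-468 were 6 of the 12, against 17.1% of all probes, and lower were 3 of the 12, against 17.0%. The undrugged arrays of the 2 lines did not overlap for the same number, 9 of the 12 probes, against 44.4% of all probes. By gene, 6 of 10 were higher, 2 were lower and 2 did not pass, and their median log2 difference was 1.61 (also 1.61 with genes below the floor at their lower bound), against -0.02 over the 12920 genes tested. The members were chosen with earlier results of these data known, so their shares and median may partly reflect that choice. These are whole cultures, so fewer cells that make an RNA and less of it per cell cannot be told apart.

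S100A8 had a lowest log2 signal of 12.94, a median of 13.25 and a highest of 13.38 on the 6 undrugged MDA-MB-468 arrays, against 5.83, 5.99 and 6.04 on the 6 of MDA-MB-231. S100A9 had 12.98, 13.28 and 13.39 in MDA-MB-468, against 5.88, 6.0 and 6.05 in MDA-MB-231. Both calprotectin genes were thus below the floor on every array of MDA-MB-231, and the gap is a lower bound. S100A8 was at least 115-fold higher in MDA-MB-468 and S100A9 at least 116-fold, where the dim line is set at the floor. These bounds carry no test. The fitted log2 differences (SE) were 7.23 ± 0.058 for S100A8 (adjusted p = 8.85e-18, limma) and 7.23 ± 0.068 for S100A9 (adjusted p = 2.14e-17, limma). On the MDA-MB-468 arrays S100A8 lay between percentiles 99.10 and 99.74 of all probes and S100A9 between 99.46 and 99.87, the top of the scale. Whether bright beads compressed these values was not tested.

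S100A7 was the third member at background in MDA-MB-231. Its log2 signal had a lowest of 10.19, a median of 10.60 and a highest of 10.80 in undrugged MDA-MB-468, against 5.83, 5.85 and 5.92 in MDA-MB-231. It was at least 18.6-fold higher in MDA-MB-468, and the fitted log2 difference was 4.71 ± 0.11 (adjusted p = 1.36e-13, limma). S100A7A, a close copy of S100A7 that its probe may not fully separate, was at least 4.52-fold higher.

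S100A8 and S100A9 are best known from leukocytes, so markers of leukocytes were read on the same arrays. Of 10 markers, 7 were above the floor on at least 1 of the 9 MDA-MB-468 arrays and 6 on at least 1 MDA-MB-231 array. PTPRC (CD45), which all leukocytes carry, MPO of neutrophils and CD3E of T cells were above it on none of the 18 arrays. CD79A was above it on 8 of 9 MDA-MB-468 and 8 of 9 MDA-MB-231 arrays, CSF1R on 7 and 5, FCGR3A on 5 and 9, LYZ on 5 and 1, MS4A1 on 1 and 1 and ITGAM on 1 and 0. CD14 was above it on all 18 and was higher in MDA-MB-468 by 1.42 ± 0.11 (adjusted p = 4.13e-08, limma). The mean log2 signal of the 10 markers ran from 6.31 to 6.54 in MDA-MB-468 and from 6.23 to 6.34 in MDA-MB-231.

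Among the epithelial members, S100P and S100A14 were also higher in MDA-MB-468. S100P ran from 8.98 to 9.48 with a median of 9.11 in MDA-MB-468, against 6.11 to 6.44 with a median of 6.39 in MDA-MB-231. It was above the floor on 6 of 6 undrugged MDA-MB-468 arrays and on 4 of 6 of MDA-MB-231. With the arrays below the floor set at it, S100P was at least 6.81-fold higher in MDA-MB-468, and the fitted log2 difference was 2.83 ± 0.072 (adjusted p = 3.61e-13, limma). S100A14 ran from 8.59 to 9.04 with a median of 8.92 in MDA-MB-468, against 6.37 to 6.85 with a median of 6.63 in MDA-MB-231, a difference of 2.22 ± 0.086 or 4.66-fold (adjusted p = 2.93e-11, limma). S100A2 stood near the floor in both lines and its arrays overlapped. Its range was 6.47 to 7.16 in MDA-MB-468 and 6.38 to 6.60 in MDA-MB-231, and the difference of 0.33 ± 0.078 (adjusted p = 0.00192, limma) stayed below the size threshold.

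The members that bind myosin and calcyclin-binding protein went the other way. S100A4 was lower in MDA-MB-468 with both of its probes. ILMN_1688780 had 9.10, 9.30 and 9.86 (lowest, median and highest) in MDA-MB-468, against 12.29, 12.39 and 12.51 in MDA-MB-231. ILMN_1684306 had 9.63, 9.77 and 10.05 in MDA-MB-468, against 11.81, 11.90 and 12.19 in MDA-MB-231. The probes gave unequal sizes, log2 differences of -2.95 ± 0.061 and -2.15 ± 0.089 (adjusted p = 3.9e-14 and 6.03e-11, limma). S100A6 ran from 11.31 to 11.75 in MDA-MB-468, against 12.62 to 12.89 in MDA-MB-231, a difference of -1.16 ± 0.071 (adjusted p = 4.1e-09, limma). S100A4 and S100A6 nonetheless stayed above the floor on all 9 MDA-MB-468 arrays.

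The annexin-binding members split. S100A11 was 1.99-fold higher in MDA-MB-468, with 10.76 to 11.07 against 9.84 to 10 in MDA-MB-231 and a log2 difference of 0.99 ± 0.054 (adjusted p = 1.21e-09, limma). S100A10 was bright in both lines and its arrays overlapped. Its log2 differences were 0.13 (95% interval -0.05 to 0.32) and 0.17 (-0.02 to 0.36) for the 2 probes, with adjusted p = 0.191 and 0.103 (limma). The intervals leave out a gap of 0.5 in either direction for the mean over the times. On arrays of the same time and treatment, the gap ran from -0.04 to 0.31 for ILMN_1796712 and from 0.01 to 0.55 for ILMN_2046730. Both probes lay at percentile 99.03 or above on every array, and whether bright beads compressed these values was not tested.

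**Figure D2:**
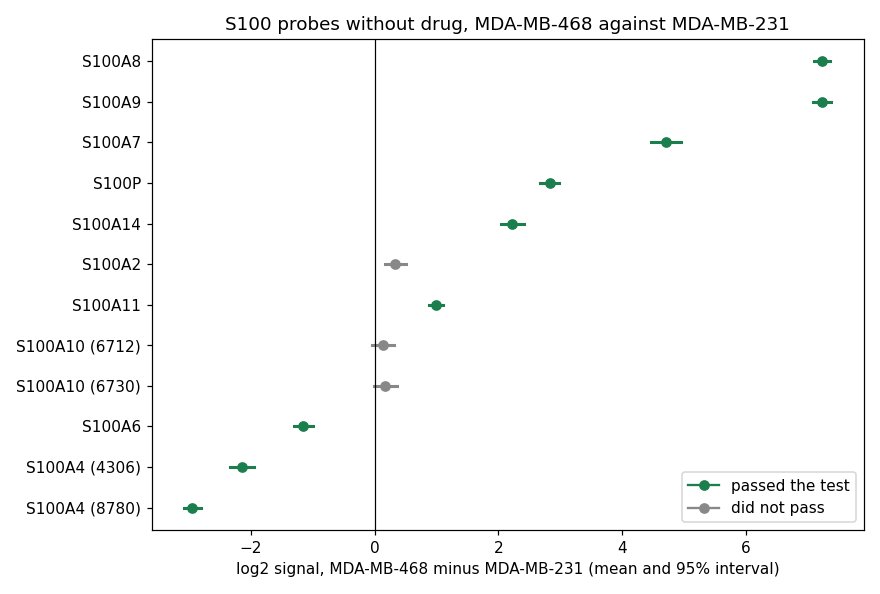
Log2 difference in signal (x axis), MDA-MB-468 minus MDA-MB-231, for each S100 probe (rows) over 6 undrugged arrays per line, with the 95% interval of the limma fit. S100A8 and S100A9 stand at 7.23, and the 2 S100A4 probes at -2.15 and -2.95.

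Known partners, receptors and relatives of the S100 proteins were counted from lists (1 probe a gene, the brightest), to be read against all 12920 genes tested, of which 20.8% were higher and 19.5% lower in MDA-MB-468. Of 10 partners, all tested, none was higher in MDA-MB-468 and 3 were lower. ANXA6 (annexin A6) was at least 3.58-fold lower, being below the floor in MDA-MB-468, AHNAK, a scaffold that binds the S100A10 and annexin A2 complex, differed by -1.04 ± 0.053, and ANXA1 by -0.56 ± 0.052 (log2, SE). Of 4 receptors, AGER and CD36 did not reach the filter. TLR4, a calprotectin receptor, was at least 2.63-fold lower in MDA-MB-468, where it was below the floor, and BSG (basigin), bound by S100A9, differed by -0.54 ± 0.13. Averaged over the times, MDA-MB-468 thus had less RNA of both receptors tested, and a link to its calprotectin RNA was not tested. In undrugged MDA-MB-468, BSG was higher at 24 h than at 4 h by more than this gap. Its difference between the lines is thus a mean over unlike times, and the direction at a single time was not tested. Of 19 genes of the epidermal differentiation complex, which neighbours the S100 genes, 5 were tested and 1 was higher in MDA-MB-468, the hair follicle gene TCHH (trichohyalin) by 1.92 ± 0.055. Of 20 other EF-hand genes, 14 were tested, 6 were higher and 4 lower, among them CALML5 (calmodulin-like skin protein) by 3.22 ± 0.24, EFHD1 by 2.90 ± 0.11 and CALB2 (calretinin) by -2.29 ± 0.11. All calls in this paragraph had adjusted p of at most 0.05 (limma).

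OTX015 moved none of the 10 genes past the threshold in either line. In MDA-MB-468, 0 of 12 probes passed, against 4.38% of all probes, with 2 of the 12 at an unadjusted p under 0.05 (limma), as were 21.1% of all probes. In MDA-MB-231, 0 of 12 passed, against 0.427% of all probes, with 1 at an unadjusted p under 0.05, as were 15.5% of all probes. The lines' responses differed in 0 of 12 probes, against 1.90% of all probes, with 2 at an unadjusted p under 0.05, as were 15.0% of all probes. The 95% intervals of this difference reached 0.5 log2 for 7 of 12 probes, so one of that size is not excluded for these 7. Within each line the count stayed at 0 under every alternative tried, though with median scaling, and without the 8 h arrays, no probe at all passed in MDA-MB-468. In MDA-MB-231 S100A8, S100A9 and S100A7 were below the floor on all 9 arrays. None rose above it with OTX015, and a fall could not be seen. The 95% intervals of the other 9 probes lay between -0.35 and 0.34 log2. In MDA-MB-468, 5 of 12 intervals reached 0.5 in one direction, so a change of that size is not excluded for these 5. KRT18, an epithelial keratin, was higher with OTX015 in MDA-MB-468 by 1.36 ± 0.29 (adjusted p = 0.0382, limma), and its part in the S100 values was not tested.

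S100A8 came closest to the threshold in the main fits. In MDA-MB-468 its log2 signal was 13, 12.46 and 13.05 with OTX015 at 4, 8 and 24 h, against 13.38, 13.07 and 13.30 with DMSO and 13.32, 12.94 and 13.20 untreated. The 3 OTX015 values all lay below the 3 DMSO values, though 1 untreated value, at 8 h, lay within their range. The mean log2 difference was -0.41 ± 0.098 (SE, n = 3 time points, adjusted p = 0.0551, limma), or -0.38, -0.60 and -0.25 at the 3 times. The widest of these, at 8 h, rests on the dimmest array, and without it the difference was -0.32 (adjusted p = 0.136, limma). Over the alternatives the adjusted p ran from 0.0331 to 0.423. The difference between the lines' responses was -0.40 ± 0.12 (adjusted p = 0.0994, limma), set against a probe at background in MDA-MB-231.

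S100A9, its partner in calprotectin, had values on the other side of DMSO. In MDA-MB-468 it had 13.52, 13.42 and 13.51 with OTX015 at 4, 8 and 24 h, against 12.98, 13.36 and 13.39 with DMSO and 12.98, 13.34 and 13.22 untreated. The OTX015 values all lay above the DMSO values, by 0.55, 0.06 and 0.11, and the mean difference of 0.24 ± 0.12 did not pass (adjusted p = 0.30, limma). Taken on the same arrays, the S100A8 difference minus the S100A9 difference was -0.92, -0.66 and -0.36 at 4, 8 and 24 h, so S100A8 had the lower value at 3 of 3 times. With median scaling in place of quantile normalisation, the difference of S100A9 was -0.0027 and that of S100A8 was -0.58, while the median of all probes tested stood at -0.12. The gap between the 2 genes was chosen after their values were seen and was not tested. S100A7 had 10.77, 10.33 and 10.95 with OTX015, against 10.60, 10.52 and 10.60 with DMSO, and differed by 0.11 ± 0.20.

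S100A2 had lower values with OTX015 at every time in both lines. In MDA-MB-468 it had 6.93, 6.31 and 6.0 with OTX015, against 7.04, 6.61 and 6.67 with DMSO, and differed by -0.36 ± 0.14 (adjusted p = 0.170, limma). In MDA-MB-231 it had 6.44, 6.30 and 6.22 with OTX015, against 6.48, 6.60 and 6.46 with DMSO, and differed by -0.19 ± 0.074 (adjusted p = 0.203, limma). The OTX015 arrays at 8 and 24 h lay below the floor in both lines while their DMSO arrays lay above it, so these differences may understate the gap. Neither passed the test. S100P in MDA-MB-468 had 9.17, 9.06 and 8.64 with OTX015, against 9.36, 9.16 and 9.06 with DMSO, and differed by -0.24 ± 0.11 (adjusted p = 0.277, limma). In MDA-MB-231 S100P differed by 0.14 ± 0.084, near the floor.

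The remaining members stayed within 0.27 log2 of DMSO on average, in either direction, in both lines. At 24 h alone several were farther off, on 1 array each and with no test. S100A10 was above DMSO at 24 h with both probes in both lines, by 0.35 and 0.24 in MDA-MB-468 and by 0.34 and 0.33 in MDA-MB-231. S100A4 was below DMSO at 24 h in MDA-MB-468, by -0.64 (ILMN_1684306) and -0.37 (ILMN_1688780), and above it in MDA-MB-231, by 0.22 and 0.14. Over the alternatives, the mean difference of ILMN_1684306 in MDA-MB-468 ran from -0.59 to -0.08. Its adjusted p ran from 0.0301 to 0.837 (limma), and it passed both thresholds under none. S100A14 in MDA-MB-231 was above DMSO by 0.42 at 24 h, with 0.02 at 4 h and 0.00 at 8 h. For scale, DMSO and untreated arrays of 1 time differed by up to 0.41 log2 in MDA-MB-468 and by up to 0.28 in MDA-MB-231 for the member probes, with medians of 0.13 and 0.07.

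**Figure D3:**
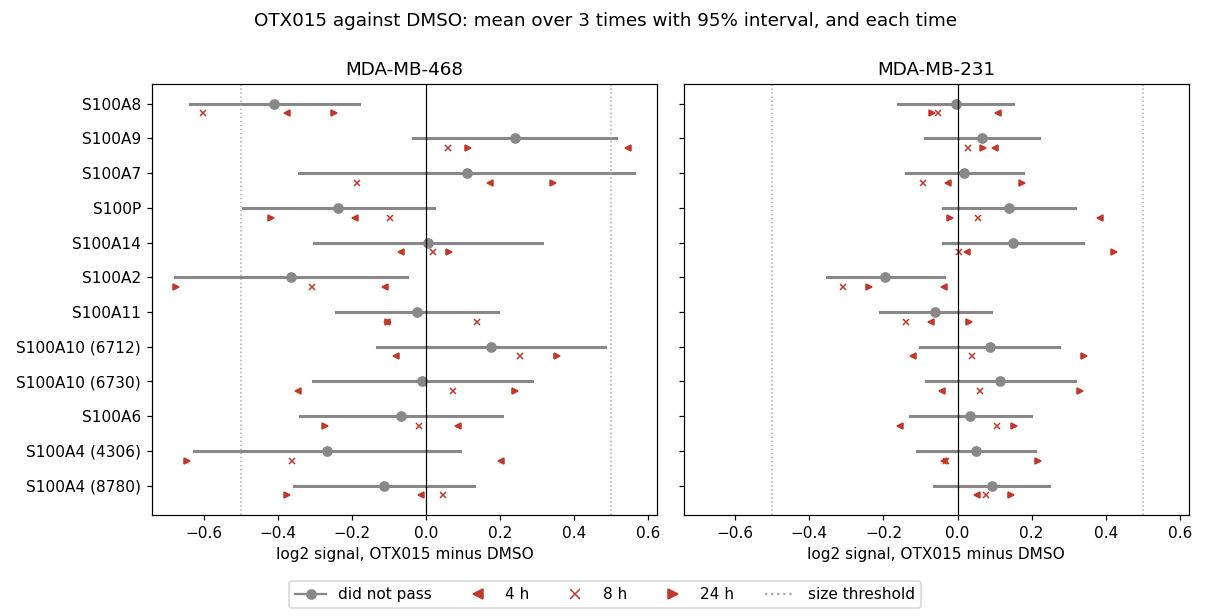
Log2 difference in signal (x axis), OTX015 minus DMSO, for each S100 probe (rows) in MDA-MB-468 (left) and MDA-MB-231 (right), as limma means over 3 time points with 95% intervals (grey) and as single times (red). No probe passed the test, and S100A8 in MDA-MB-468 stands at -0.41.

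S100A8, S100A9 and S100A7 were above the floor on all 3 OTX015 arrays of MDA-MB-468 and on none of MDA-MB-231. On arrays of the same time, MDA-MB-468 against MDA-MB-231, S100A4 (ILMN_1688780) differed by -3.67 to -2.46 with OTX015, against -3.36 to -2.43 without. The doses differed between the lines, and this range carries no test. Of the lists above, OTX015 called 1 of 14 EF-hand genes in MDA-MB-468, GCA (grancalcin), at 0.60 ± 0.13 (adjusted p = 0.0388, limma), and none of the partners, receptors or epidermal differentiation complex genes in either line. Over all 12920 genes tested, OTX015 called 2.52% higher and 3.34% lower in MDA-MB-468, and 0.325% and 0.232% in MDA-MB-231.

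Between 24 h and 4 h without drug in MDA-MB-468, 2 of 12 probes passed, a share near the 12.8% of all probes, and both were lower at 24 h, against 4.98% of all probes. S100A10 (ILMN_2046730) had 12.94 with DMSO and 12.84 untreated at 24 h, against 13.52 and 13.32 at 4 h, a difference of -0.53 ± 0.098 (adjusted p = 0.00686, limma). Its other probe differed by -0.41 ± 0.094 (adjusted p = 0.0154, limma), under the size threshold. S100A2 had 6.67 with DMSO and 6.47 untreated at 24 h, against 7.04 and 7.16 at 4 h, a difference of -0.54 ± 0.13 (adjusted p = 0.0207, limma). Neither call held throughout. S100A10 kept its low p but fell just under the size threshold on the deposited values (-0.49, adjusted p = 0.00619, limma) and without the untreated array of 24 h (-0.48, adjusted p = 0.00371, limma), and without the DMSO array of 4 h it was -0.43 (adjusted p = 0.0811, limma). S100A2 was -0.40 and -0.43 in the first 2 of these and -0.59 in the third (adjusted p = 0.0294, 0.0192 and 0.0935, limma), and it also did not pass without the untreated array of 4 h (-0.48, adjusted p = 0.151, limma) or without background correction (-0.41, adjusted p = 0.0298, limma). With median scaling the median of all probes stood at -0.34, 10 of 12 member probes passed as lower at 24 h, and S100A4 (ILMN_1684306), S100A6 and S100A11 changed sign. Of all calls 61.1% were higher at 24 h with quantile normalisation and 11.5% with median scaling.

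Several other members had small differences with low p over this time. S100P differed by -0.40 ± 0.095 (adjusted p = 0.0183, limma), with 9.06 and 8.99 at 24 h against 9.36 and 9.48 at 4 h (DMSO and untreated). S100A9 differed by 0.33 ± 0.088 (adjusted p = 0.0263, limma), with 13.39 and 13.22 at 24 h against 12.98 on both arrays at 4 h. With median scaling S100P stood at -1.09 and S100A9 at 0.0067, and without the untreated or the DMSO array of 4 h the adjusted p of S100A9 was 0.154 or 0.147 and that of S100P 0.155 or 0.0801 (limma). S100A8 differed by -0.10 ± 0.088. The 24 h arrays of MDA-MB-468 had mean raw intensities of 336 (DMSO) and 303 (untreated), against 503 and 452 at 4 h. KRT18, an epithelial keratin, was higher by 2.26 ± 0.16 and BSG by 1.51 ± 0.17 at 24 h, and the part of intensity or of culture state in the S100 values was not tested.

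In MDA-MB-231, 0 of 12 probes passed between 24 h and 4 h without drug, against 0.918% of all probes, with 3 at an unadjusted p under 0.05 (limma), as were 21.8% of all probes. One S100A4 probe (ILMN_1684306) had 12.14 and 12.19 at 24 h against 11.81 on both arrays at 4 h, a difference of 0.35 ± 0.080 (adjusted p = 0.0212, limma) under the size threshold. The other S100A4 probe differed by 0.02 ± 0.088. The 2 probes thus disagree on S100A4 over time.

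**Figure D4:**
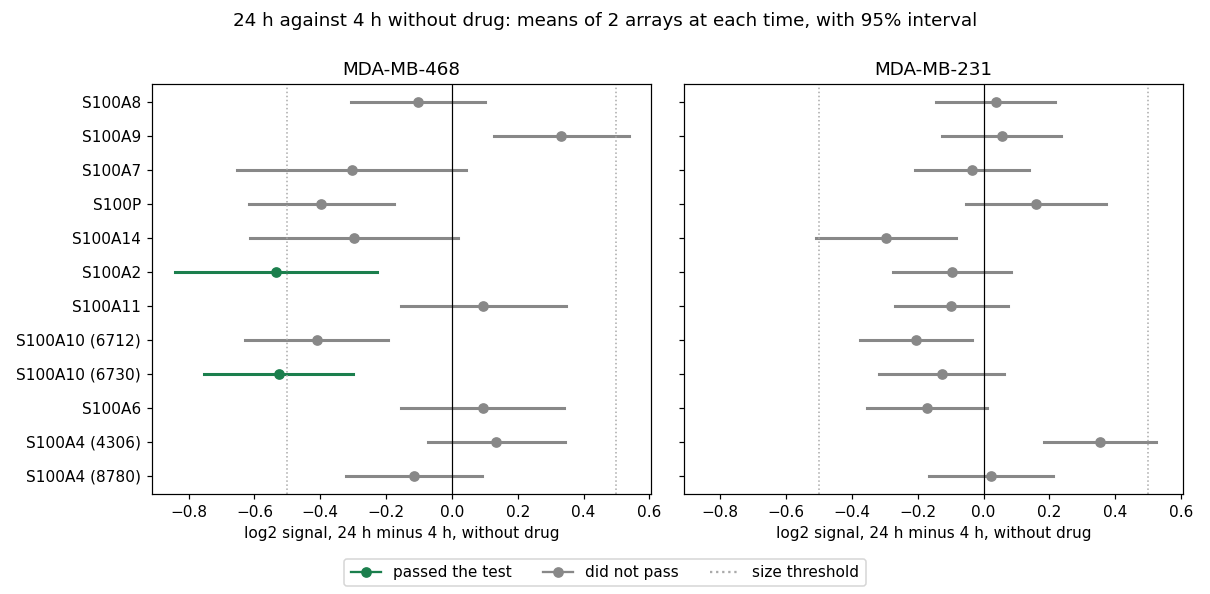
Log2 difference in signal (x axis), 24 h minus 4 h without drug, for each S100 probe (rows) in MDA-MB-468 (left) and MDA-MB-231 (right), from 2 arrays at each time, with the 95% interval of the limma fit. Green marks the 2 probes that passed, S100A10 (ILMN_2046730) at -0.53 and S100A2 at -0.54 in MDA-MB-468.

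The rest of the family was measured on the same arrays. Of 11 other S100 genes, 5 were tested, S100A3, S100A5, S100A7A, S100A13 and S100A16, and S100A1, S100A7L2, S100A12, S100B, S100G and S100Z did not reach the filter. Without drug, 2 of the 5 were higher in MDA-MB-468, S100A7A and S100A16 (1.10 ± 0.095, adjusted p = 1.71e-07, limma), and none was lower. Over all 12920 genes tested, 20.8% were higher and 19.5% lower. S100A12, the neighbour between S100A9 and S100A8, was above the floor on 1 of 6 undrugged MDA-MB-468 arrays and on none of MDA-MB-231. S100A7A did not keep 1 direction with OTX015. In MDA-MB-468 it had 8.20, 7.50 and 9.33 with OTX015 at 4, 8 and 24 h, against 9.01, 8.50 and 8.23 with DMSO, so it was below DMSO by -0.81 and -1.0 at 4 and 8 h and above it by 1.10 at 24 h. Its mean difference of -0.23 ± 0.39 averages over this change of sign. Between 24 h and 4 h without drug, S100A7A fell by 0.77 ± 0.087 (adjusted p = 0.00076, limma) and S100A16 by 0.69 ± 0.10 (adjusted p = 0.00261, limma) in MDA-MB-468.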

How the data were processed

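Per the labels and the study's methods, total RNA was hybridised to Illumina HumanHT-12 v4 arrays, and GenomeStudio was named for processing, with no version given. The deposited bead intensity table was not normalized. A second deposited table held log2 values, which differed from quantile-normalised log2 intensity by a median of 0.00533. No control probes or detection p-values were used. Intensities were background-corrected (normexp, offset 50), quantile-normalised and log2-transformed, and probes above the floor on at least 3 arrays were kept. Differences were fitted with limma 3.58.1 (R 4.3.3, eBayes), with Benjamini-Hochberg adjustment over all 23631 probes. OTX015 fits held the 9 arrays of a line with time as a term, and the fits of both lines held all 18. The 24 h against 4 h fits grouped the arrays of a line by time and by drug. Their 3 residual degrees of freedom came from the differences between untreated and DMSO arrays. Figures used matplotlib 3.10.9. The code was tested on simulated data. The number of arrays limits the precision. All members were named with every probe. Of other lists, up to 3 called genes a comparison were named. Members and lists were chosen with earlier results of these data known. Alternatives were the background step, deposited values, median scaling, filters, moderation, weights, other controls, time terms and leaving out arrays.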

Additional observations from a re-analysis of the deposited data

Results flagged for a closer look

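S100A6 in MDA-MB-231 with DMSO at 4 h had a log2 signal of 12.89, apart from the other 5 undrugged arrays of that line, which lay between 12.62 and 12.71. The gap to the nearest array was 0.651 of the whole range. It was the only one of 24 groups of 6 undrugged arrays (12 probes in 2 lines) with such a gap, and chance gives about 1 in 20. For no member did the difference between the lines' responses to OTX015 pass the test.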

How the results depend on the processing

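Member probes passing were compared under each alternative. OTX015 gave 0 in either line throughout, and the lines without drug gave 9 of 12 throughout, except 8 with a log2 difference of at least 1, where S100A11 (0.99) was lost. The difference of the lines' responses gave 0, with a range of 0 to 1 on leaving out single arrays: without MDA-MB-468 OTX015 at 4 h, S100A4 (ILMN_1684306) passed at -0.53 (adjusted p = 0.0202, limma; 0.445 on all arrays). Between 24 h and 4 h in MDA-MB-231, 0 probes passed, but 1 with median scaling, S100A4 (ILMN_1684306) at 0.55 (adjusted p = 0.0348, limma). In MDA-MB-468, 2 passed, against 1 with no background correction, 0 on the deposited values, 0 with a log2 difference of at least 1, 10 with median scaling, and 0 to 3 on leaving out single arrays. Median scaling reversed S100A4 (ILMN_1684306) to -0.60, S100A6 to -0.57 and S100A11 to -0.59. The cause was not tested.

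Over all probes, calls for OTX015 in MDA-MB-468 numbered 1034, but 91 to 1811 on leaving out single arrays, 353 with no time term, 234 with OTX015 and DMSO arrays alone, 177 with a log2 difference of at least 1, 131 without the 24 h arrays, 1569 with both controls, and 0 with median scaling or without the 8 h arrays. In MDA-MB-231 they numbered 101, but 64 with no background correction or without the 8 h arrays, 52 on the deposited values, 175 without the 4 h arrays, 4 with a log2 difference of at least 1 and 88 to 188 on leaving out single arrays. For the difference of responses they numbered 448, but 143 with median scaling, 772 with array weights, 895 with both controls, 706 with untreated as control, 92 with no time term, 276, 3 and 74 without the 4, 8 and 24 h arrays, 90 with a log2 difference of at least 1 and 137 to 1220 on leaving out single arrays. For the lines without drug they numbered 8050, but 3247 with a log2 difference of at least 1. Between 24 h and 4 h they numbered 3029 in MDA-MB-468, but 10522 with median scaling, 827 with a log2 difference of at least 1 and 1899 to 4249 on leaving out single arrays, and 217 in MDA-MB-231, but 808 with median scaling, 135 with no background correction, 101 on the deposited values, 14 with a log2 difference of at least 1 and 84 to 403 on leaving out single arrays. Median scaling moved the share of higher calls to 60.2% from 50.1% for the lines, to 85.9% from 57.4% for OTX015 in MDA-MB-231, to 4.2% from 42.2% for the difference of responses and to 96% from 33.2% for time in MDA-MB-231.

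The main fits pair arrays by time. Without that pairing, as no time term, OTX015 gave 0 member probes in either line, the difference of responses 0 and the lines without drug 9. With 1 array per condition, small changes were not detectable.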

Other observations

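S100A3, named here after its values were seen, had 7.62, 6.90 and 6.50 in MDA-MB-468 cells given OTX015 for 4, 8 and 24 h, against 7.88, 7.60 and 7.26 with DMSO, and 7.43, 7.59 and 7.47 with OTX015 in MDA-MB-231, against 7.79, 7.68 and 7.99 with DMSO. It was lower with OTX015 at 3 of 3 times in both lines, by 0.58 ± 0.16 in MDA-MB-468 (adjusted p = 0.0765, limma) and by 0.32 ± 0.082 in MDA-MB-231 (adjusted p = 0.0451, limma, under the size threshold).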
